A study of Rattus norvegicus with 18 samples.

Results

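The SLC25 genes encode the mitochondrial carrier family, the membrane proteins that move nucleotides, phosphate, carboxylic acids, amino acids, cofactors and metals, most of them across the inner mitochondrial membrane. Members were the rows of the deposited expression table whose gene symbol is Slc25a followed by a number and whose mean over the 6 group values was at least 1 FPKM (a level normalised to transcript length and library size). There were 32 such genes among 17312 rows, and 10545 rows of any symbol reached the same mean. The symbol pattern matched 40 rows, and the other 8 lay below the threshold. The members just inside it were Slc25a21 at a mean of 1.20 FPKM and Slc25a35 at 2.31, and the genes just outside it were Slc25a45 at 0.961 and Slc25a27 at 0.886.

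The cells were neonatal rat ventricular myocytes, heart muscle cells cultured from Sprague-Dawley pups of 2 days, plated in serum and then kept in serum-free medium. They received vehicle or SR9009, a synthetic agonist of the repressor nuclear receptors REV-ERBα and REV-ERBβ, for 24 h. Phenylephrine (PE), an α1-adrenergic agonist that makes cultured cardiomyocytes hypertrophic, was then given for 0, 4 or 48 h, which makes 6 groups of 3 libraries, 18 in all. Every group carried a pretreatment, and no cultures without PE were harvested at 4 or 48 h, so PE and the added time cannot be told apart. The dose of either compound is not given in the sources used here.

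Carriers share a fold of repeated membrane-spanning modules and mostly work as exchangers, so that ATP leaves the matrix as ADP enters. Phosphate, in contrast, enters together with protons. Heart muscle, which makes nearly all of its ATP by oxidative phosphorylation, depends on the adenine nucleotide translocases and the phosphate carrier for that traffic. It also depends on the carnitine carrier for fatty acid entry and on the oxoglutarate carrier for the malate-aspartate shuttle. Other members supply the matrix with coenzyme A, S-adenosylmethionine, pyrimidine nucleotides, glutathione and iron.

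For each gene the table gives a single FPKM in each group, which the authors derived from its 3 libraries, together with confidence bounds below and above it. There is therefore no standard deviation and no test between groups here, and no p-value is given. Differences are of log2(FPKM + 1), a scale that makes those of low genes look smaller, and the range in parentheses after a difference is the widest the bounds permit. The 2-fold rule calls a gene higher or lower when its difference is at least 1 in size and that range excludes 0, and the 1.5-fold rule does so when it is at least 1.5-fold with the same condition. Both are rules of size, not tests. All 192 member values were above 0, had the status OK and lay inside their bounds, and the median half-width of the bounds was 15.3% to 15.7% of the FPKM in the 6 groups. The summed FPKM of all genes was between 609018 (vehicle, 0 h) and 710198 (vehicle, 48 h). Depth is unknown.

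Of the marker lists, that of cardiomyocytes had the highest summed level in every group. The 10 cardiomyocyte markers summed to between 11445 FPKM (SR9009, 0 h) and 23977 FPKM (vehicle, 48 h), and none of the 10 was at 0. Fibroblast markers summed to between 1035 and 2286 FPKM over 10 genes, of which Col1a2 is listed at 0 in every group. Macrophage markers summed to between 16.0 and 57.5 FPKM over 9 genes. The 8 endothelial markers summed to between 12.1 and 22.9 FPKM, and the 7 smooth muscle markers to between 858 (SR9009, 48 h) and 1958 (vehicle, 48 h). The libraries are of bulk cultures, in which fewer cells of a type and less RNA per cell cannot be told apart.

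The family spanned more than 3 orders of magnitude in mRNA level, and its top was formed by the carriers of oxidative phosphorylation. Slc25a3, the phosphate carrier, had a mean of 1917 FPKM. Slc25a4, the adenine nucleotide translocase typical of heart and skeletal muscle (ANT1), had 1670 FPKM, and Slc25a5, the translocase found in many dividing cells (ANT2), had 814. These 3 genes held between 80.4% (SR9009, 0 h) and 86.3% (vehicle, 4 h) of the summed FPKM of the 32 members. Next in order were Slc25a11, the oxoglutarate carrier, at 242 FPKM and Slc25a39, the glutathione carrier, at 112. Slc25a30, related to the uncoupling proteins, followed at 83.4 FPKM. Of the 32 members, 5 had a mean of at least 100 FPKM, 17 lay between 10 and 100, and 10 between 1 and 10.

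**Figure D1:**
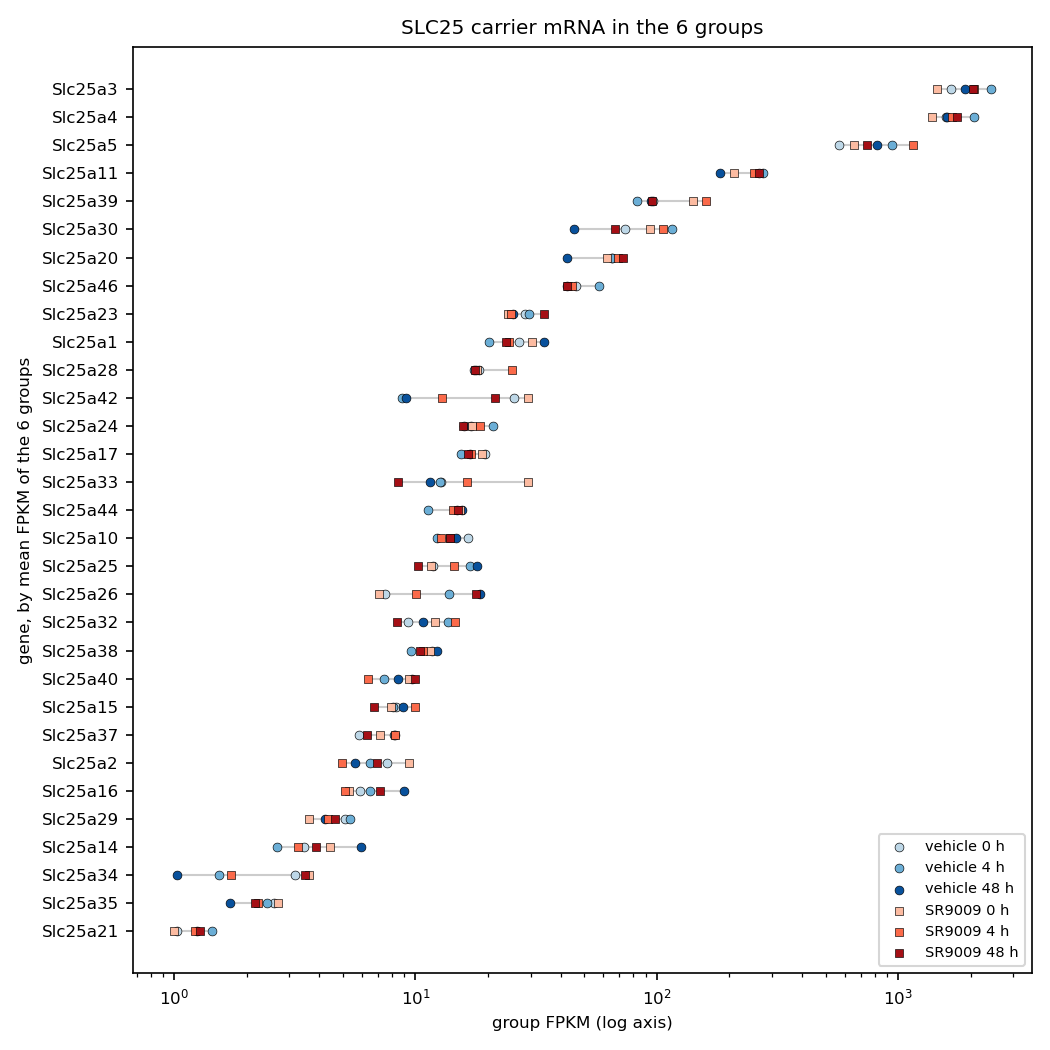
Group FPKM of 31 of the 32 SLC25 members on a log axis, ordered by mean, with circles for vehicle and squares for SR9009 and darker shades for longer PE. Slc25a3, Slc25a4 and Slc25a5 stand at the top, and Slc25a33, Slc25a34 and Slc25a42 have the widest spread for their level, with a highest group 3.45, 3.54 and 3.35 times the lowest.

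Genes of the pattern that fell below 1 FPKM include some with known specialised roles. Slc25a47, described in liver, had at most 0.371 FPKM, and Slc25a18, the second glutamate carrier, at most 0.317. Slc25a53, Slc25a41 and Slc25a54 are listed at 0 in at least 1 group. Slc25a22, the first glutamate carrier, is listed at 0 in all 6 groups, and so is Timm17b, a subunit of the import machinery. A listed 0 can be a failed estimate: Timm17b is a gene most cells use, and Col1a2 is at 0 while Col1a1 had up to 817 FPKM. The aspartate-glutamate carriers Slc25a12 and Slc25a13, the translocase genes Slc25a6 and Slc25a31 and the pyrimidine carrier Slc25a36 had no row under these symbols. They were therefore not analysed here.

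Across the 7 comparisons between groups, 4 of the 32 members met the 2-fold rule at least once and 28 did not. Of the 10385 genes measured in all 7, 15.6% met it at least once, so the share of carriers was near that of all genes. By the 1.5-fold rule the count was 12 of 32 members, against 41.3% of all genes. In each comparison the median of the members lay within 0.13 of 0. The 4 were Slc25a42, Slc25a34, Slc25a26 and Slc25a33.

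Slc25a42 imports coenzyme A into the matrix in exchange for adenine nucleotides. Its mRNA (chromosome 16, 20962227 to 20985225, rn6) had 25.7 FPKM in vehicle at 0 h, 8.76 at 4 h of PE and 9.11 at 48 h. With SR9009 it had 29.3, 12.9 and 21.4 FPKM at the same times. The vehicle groups after PE were thus the lowest, the SR9009 group at 4 h was next, and the SR9009 group at 48 h ranked next after both 0 h groups. Its bounds (18.2 to 24.6) overlap those of vehicle at 0 h (21.7 to 29.6) but lie just below those of SR9009 at 0 h (24.9 to 33.8). In vehicle the difference was -1.45 (-1.89 to -1.01) after 4 h of PE and -1.40 (-1.84 to -0.96) after 48 h, both of which use the same 0 h group. With SR9009 it was -1.12 (-1.54 to -0.71) at 4 h and -0.44 (-0.86 to -0.02) at 48 h. At 48 h of PE the gene was higher with SR9009 than with vehicle by 1.15 (0.72 to 1.58). By level it ranked 11 among the 32 carriers in vehicle at 0 h and 22 at 4 and 48 h, and with SR9009 it ranked 10, 19 and 11.

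Slc25a34, a little studied member, was likewise low in vehicle at both times of PE and, with SR9009, low at 4 h but not at 48 h, at a far lower level. Its mRNA (chromosome 5, 160175206 to 160179978, rn6) had 3.17, 1.54 and 1.03 FPKM at 0, 4 and 48 h in vehicle. With SR9009 it had 3.63, 1.72 and 3.50 FPKM. Both 0 h groups and SR9009 at 48 h stood apart from the other 3 groups, whose upper bounds (2.04, 1.46 and 2.23 FPKM) lay below the lower bounds of the first 3 (2.37, 2.80 and 2.68). For 48 h of PE in vehicle the difference was -1.04 (-1.64 to -0.46), and for SR9009 against vehicle at 48 h it was 1.15 (0.58 to 1.73). With quantile normalization the first of these was -0.84 and missed the rule. For 4 h of PE its differences were -0.72 in vehicle and -0.77 with SR9009, each meeting the 1.5-fold rule only. Under quantile normalization these were -0.50 and -0.51, short of that size.

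Slc25a42 and Slc25a34 both met the 2-fold rule for 48 h of PE in vehicle and for SR9009 against vehicle at 48 h, so the sequences before their start sites are shown, with that of Slc25a33 for contrast. They are the 250 bases before the gene start in RefSeq on build GRCr8, printed 5′ to 3′ on the gene's strand, at chr16:19247724-19247973 (plus strand), chr5:159219893-159220142 (minus) and chr5:165502974-165503223 (minus). Capitals mark matches, on either strand, to 5 motifs: the nuclear receptor half-site AAGGTCA, the core TAGGTCA of REV-ERB and ROR sites, the cyclic AMP response element TGACGTCA, the E-box CACGTG and the box CCAAT.
Slc25a42: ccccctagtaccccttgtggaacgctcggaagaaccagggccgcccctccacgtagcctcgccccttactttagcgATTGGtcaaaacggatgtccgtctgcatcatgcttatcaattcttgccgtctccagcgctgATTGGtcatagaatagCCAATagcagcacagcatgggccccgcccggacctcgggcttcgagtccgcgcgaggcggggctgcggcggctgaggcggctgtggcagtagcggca
Slc25a34: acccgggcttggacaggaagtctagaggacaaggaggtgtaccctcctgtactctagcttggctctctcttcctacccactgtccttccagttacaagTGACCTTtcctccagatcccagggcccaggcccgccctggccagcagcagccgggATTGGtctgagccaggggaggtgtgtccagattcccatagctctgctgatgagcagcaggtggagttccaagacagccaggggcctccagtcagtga
Slc25a33: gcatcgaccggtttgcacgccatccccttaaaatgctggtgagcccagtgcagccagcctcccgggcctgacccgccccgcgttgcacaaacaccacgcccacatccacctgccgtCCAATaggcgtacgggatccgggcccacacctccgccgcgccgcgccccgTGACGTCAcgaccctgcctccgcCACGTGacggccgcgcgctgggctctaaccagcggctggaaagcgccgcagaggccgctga
In these windows Slc25a42 has 3 CCAAT boxes. Slc25a34 has 1 nuclear receptor half-site, which reads TGACCTT on the strand shown, and 1 CCAAT box. Slc25a33 has 1 cyclic AMP response element, 1 E-box and 1 CCAAT box. The CCAAT box occurs in 34% of the 33469 RefSeq windows of this length and in 17 of the 26 member windows in the table. The half-site is in 3.99% of all windows and in 1 of the 26, the cyclic AMP response element in 1.59% and in 2 (Slc25a25 and Slc25a33), and the E-box in 5.59% and in 2 (Slc25a2 and Slc25a33). The REV-ERB and ROR core is in 2.26% of all windows and in 0 of the 26. The letters of these motifs do not overlap one another, and a match is a description of the sequence only.

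**Figure D2:**
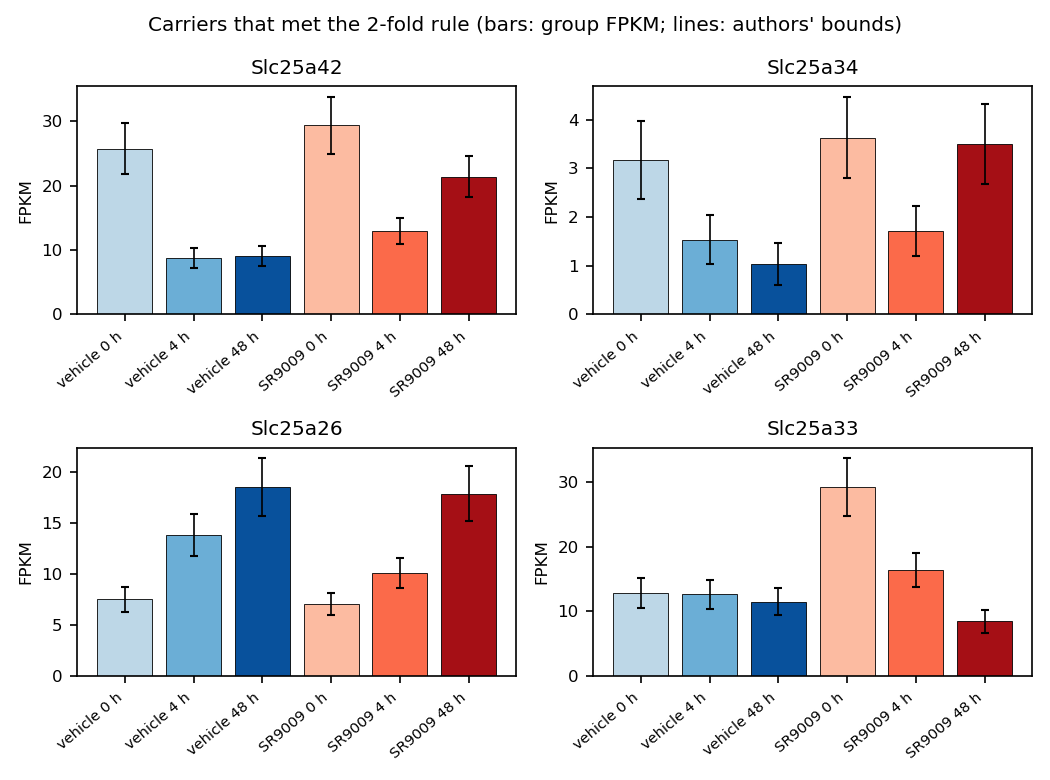
FPKM of the 4 carriers that met the 2-fold rule, in the 6 groups, with bars for the group value and lines for the authors' bounds. Slc25a42 and Slc25a34 are low in vehicle after PE and higher with SR9009 at 48 h (21.4 and 3.50 FPKM), Slc25a26 is high at 48 h in both arms, and Slc25a33 is highest with SR9009 at 0 h (29.2 FPKM).

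Slc25a26, which brings the methyl donor S-adenosylmethionine into mitochondria, was higher after PE in both arms. Its mRNA (chromosome 4, 126522335 to 126615402, rn6) had 7.51, 13.8 and 18.5 FPKM at 0, 4 and 48 h in vehicle, and 7.08, 10.1 and 17.9 FPKM with SR9009. In each arm the 3 values stand in the order of time, and the bounds of 0 h and 48 h do not overlap. The 48 h difference was 1.20 (0.78 to 1.61) in vehicle and 1.23 (0.83 to 1.62) with SR9009, groups that share no libraries. The difference between the arms in that response was 0.03, with a range of -0.78 to 0.84 that leaves wide room on either side. In vehicle the 48 h difference was 0.994 when FPKM was rescaled to equal sums, just short of the rule. Mat2a, which makes S-adenosylmethionine in the cytosol, had 93.8, 162 and 122 FPKM at 0, 4 and 48 h in vehicle and 84.7, 134 and 87.2 with SR9009.

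Slc25a33 carries pyrimidine nucleotides, the building blocks of mitochondrial DNA and RNA. Its mRNA (chromosome 5, 166701463 to 166726794, rn6) had 12.8, 12.6 and 11.5 FPKM at 0, 4 and 48 h in vehicle. With SR9009 it had 29.2, 16.4 and 8.45 FPKM, so the SR9009 groups span the highest and the lowest values while the vehicle groups lie close together with overlapping bounds. SR9009 against vehicle at 0 h gave 1.13 (0.67 to 1.59), and 48 h of PE within the SR9009 arm gave -1.68 (-2.17 to -1.20). At 4 h of PE the SR9009 difference was 0.35 and at 48 h -0.40, neither within a rule. The 48 h PE difference with SR9009 minus that in vehicle was -1.53 (-2.52 to -0.56). This value, the 1.13 and the -1.68 all use the SR9009 group at 0 h, so its level enters each. RefSeq lists 1 pseudogene symbol of Slc25a33, and reads of such copies could be split between rows.

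At 4 h of PE in vehicle, 0 members were higher and 1, Slc25a42, was lower by the 2-fold rule. Of all 10418 genes measured in that comparison, 2.75% were higher and 2.32% lower. The median difference of the 32 members was 0.03, against -0.02 for all genes. By the 1.5-fold rule Slc25a26 (0.80), Slc25a5 (0.73) and Slc25a30 (0.63) were higher and Slc25a42 and Slc25a34 lower, beside 8.15% and 8.82% of all genes. With FPKM rescaled to equal sums Slc25a5 was 0.53 and Slc25a30 0.43, and with quantile normalization 0.40 and 0.41. These values fall short of 1.5-fold. Slc25a1, which exports citrate for lipid synthesis, had 26.9, 20.1 and 34.0 FPKM at 0, 4 and 48 h in vehicle and 30.4, 24.5 and 23.6 with SR9009. Its 4 h vehicle difference was the second lowest among members of at least 5 FPKM, at -0.40 (-0.83 to 0.02).

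The translocases exchange matrix ATP for cytosolic ADP. Slc25a5 (chromosome X, 123404570 to 123407637, rn6) had 571, 946 and 816 FPKM at 0, 4 and 48 h in vehicle and 656, 1153 and 740 with SR9009. Its 4 h difference was 0.73 (0.30 to 1.15) in vehicle and 0.81 (0.40 to 1.23) with SR9009, and both groups at 4 h stood above both groups at 0 h with bounds that do not overlap. Slc25a4 (chromosome 16, 49266903 to 49270698, rn6) had 1582, 2056 and 1590 FPKM in vehicle and 1377, 1667 and 1745 with SR9009, with 4 h differences of 0.38 (-0.07 to 0.83) and 0.28 (-0.17 to 0.72) that met no rule. These ranges overlap those of Slc25a5, and a difference between the genes was not tested. The ratio of Slc25a4 to Slc25a5 was 2.77 (2.05 to 3.74 by the bounds), 2.17 (1.60 to 2.95) and 1.95 (1.44 to 2.62) at 0, 4 and 48 h in vehicle. With SR9009 it was 2.10 (1.56 to 2.82), 1.45 (1.07 to 1.95) and 2.36 (1.74 to 3.19). The bounds of every group overlap those of the other times in its arm and those of the other arm at its time. RefSeq lists 9 pseudogene symbols of Slc25a5 and 1 of Slc25a4, and how reads were shared among such copies is not given in the sources used here.

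Slc25a3 (chromosome 7, 31816601 to 31824064, rn6), which supplies the phosphate for ATP synthesis, had 1651, 2427 and 1885 FPKM in vehicle and 1452, 2051 and 2033 with SR9009. RefSeq lists 2 pseudogene symbols of this gene, and how reads were shared among such copies is not given either. Slc25a3 was the most abundant member in every group but met neither rule in any of the 7 comparisons. Its difference for 4 h of PE in vehicle was 0.56 (0.12 to 0.99). Transcripts of 11 mitochondrial content genes, such as citrate synthase Cs, had a median difference of 0.44 in the same comparison, with 11 of 11 above 0. None was called by the 2-fold rule, and 2 were higher by the 1.5-fold rule, beside 8.15% of all genes. Of all genes in that comparison 48.4% lay above 0, and their median was -0.02. The cardiomyocyte markers had a median of 0.47 there, with 10 of 10 above 0, and the fibroblast markers -0.70, with 8 of 9 below 0. Their part in the carrier values was not tested.

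**Figure D3:**
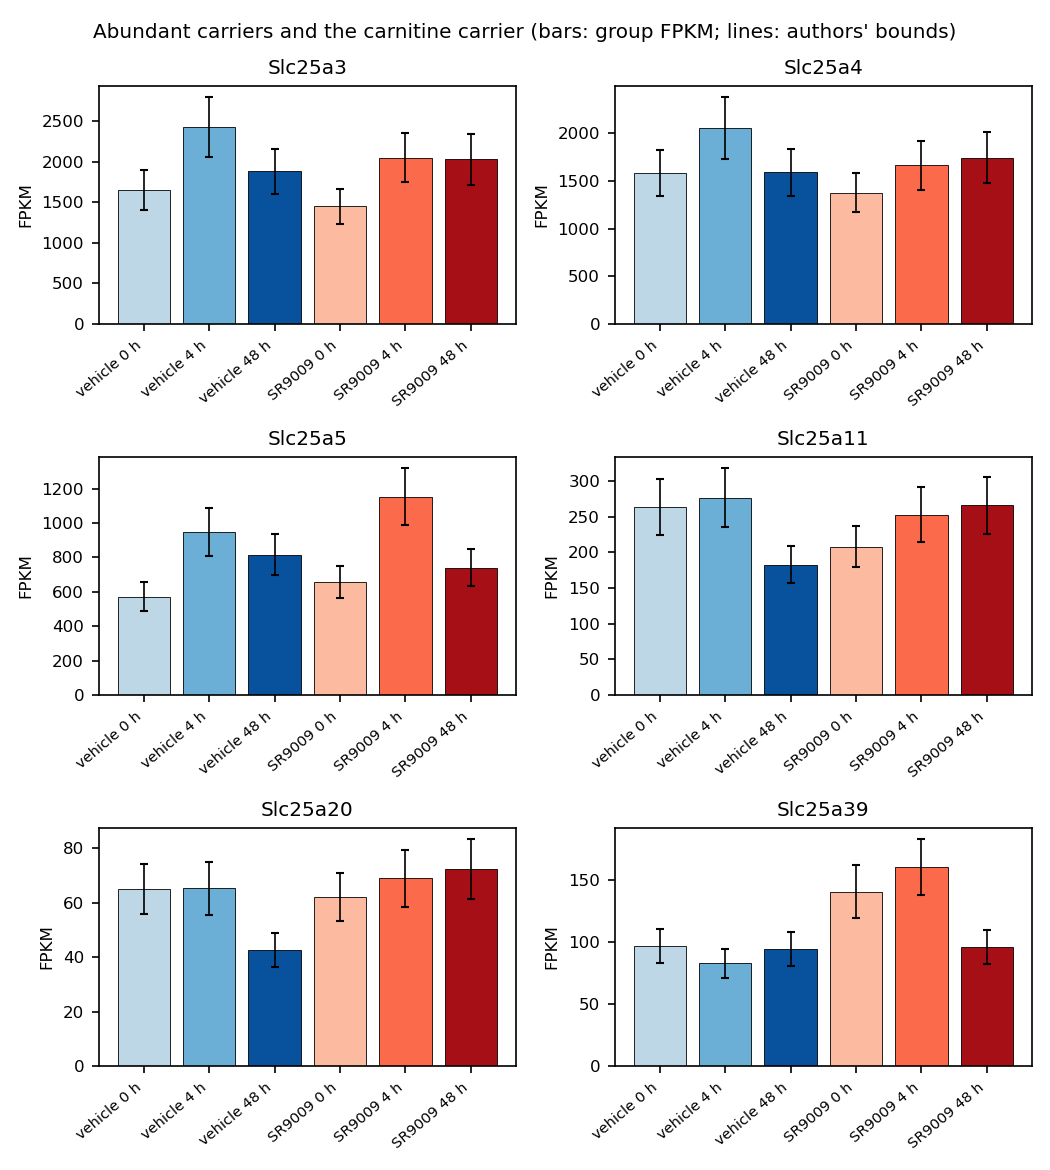
FPKM of Slc25a3, Slc25a4, Slc25a5, Slc25a11, Slc25a20 and Slc25a39 in the 6 groups, with bars for the group value and lines for the authors' bounds. Slc25a5 is highest at 4 h of PE in each arm, Slc25a11 and Slc25a20 are lowest in vehicle at 48 h (183 and 42.5 FPKM), and Slc25a39 is highest with SR9009 at 0 and 4 h.

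After 48 h of PE in vehicle, Slc25a26 was higher and Slc25a42 and Slc25a34 were lower by the 2-fold rule. That is 1 and 2 of 32 members, beside 4.87% and 3.96% of 10416 genes, and the median was -0.02 for the members and 0.01 for all genes. With FPKM rescaled to equal sums 0 members were higher and 2 lower. By the 1.5-fold rule Slc25a14, related to the uncoupling proteins, was also higher, by 0.63 (0.09 to 1.20). Its difference was 0.45 with rescaled FPKM, short of that size. It had 3.47, 2.66 and 5.93 FPKM at 0, 4 and 48 h in vehicle and 4.42, 3.25 and 3.87 with SR9009. Slc25a30 at -0.69 and Slc25a20 at -0.60 were also lower, beside 11.3% and 10.4% of all genes.

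Slc25a20 exchanges acylcarnitine for carnitine and so admits fatty acids to the matrix. It (chromosome 8, 117455308 to 117476762, rn6) had 64.9, 65.3 and 42.5 FPKM at 0, 4 and 48 h in vehicle and 62.1, 69.0 and 72.4 FPKM with SR9009. The vehicle group at 48 h lay below the other 5, and its upper bound (48.8) was below the lowest of their lower bounds (53.2). SR9009 against vehicle at 48 h gave 0.75 (0.33 to 1.18). Of the enzymes that work before and after this carrier, Cpt1a was measured at 48 h at 21.5 FPKM under vehicle and 44.0 under SR9009, Cpt1b at 67.3 and 114, and Cpt2 at 40.2 and 77.7.

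Slc25a11, which exchanges oxoglutarate for malate, was also lowest in vehicle at 48 h, though its bounds there (157 to 209) overlap those of SR9009 at 0 h (179 to 237). It (chromosome 10, 57265903 to 57268018, rn6) had 264, 276 and 183 FPKM in vehicle and 208, 253 and 266 with SR9009. The 48 h PE difference was -0.53 (-0.95 to -0.10) in vehicle and 0.35 (-0.07 to 0.77) with SR9009, so the arms differed in sign; the difference between them was 0.88 (0.04 to 1.72). Cytosolic malate dehydrogenase Mdh1, its partner in the shuttle, had 924 and 767 FPKM at 0 and 48 h in vehicle and 687 and 1114 with SR9009. The 11 mitochondrial content genes had a median 48 h PE difference of 0.03 in vehicle and 0.59 with SR9009.

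Slc25a30 differed from these in its time course. It (chromosome 15, 57813351 to 57834173, rn6) had 74.0, 115 and 45.4 FPKM at 0, 4 and 48 h in vehicle and 93.3, 106 and 67.1 with SR9009. In vehicle the 4 h value was the highest and the 48 h value the lowest of all 6 groups, with differences from 0 h of 0.63 (0.21 to 1.04) and -0.69 (-1.10 to -0.28). The SR9009 arm had 0.18 and -0.47, neither within a rule.

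For 48 h of PE in vehicle 6 of 9 fibroblast markers were lower and 0 higher by the 2-fold rule, beside 3.96% of all genes lower, with a median of -1.24. Slc25a42, Slc25a34, Slc25a30 and Slc25a20 were lower by at least the 1.5-fold rule in that comparison too. So were other lists in their medians. Endothelial, macrophage and haemoglobin and other erythroid markers had -0.57, -0.47 and -1.50, with 0 of 6, 0 of 7 and 0 of 4 above 0. The smooth muscle markers had -0.63, with 3 above 0 and 4 below. Of all genes 50.9% lay above 0. For SR9009 against vehicle at 48 h, Slc25a42, Slc25a34 and Slc25a20 were higher, and Slc25a30 at 0.55 (0.14 to 0.96) met no rule. There 6 of 9 fibroblast markers lay above 0 and 3 below, beside 45.3% of all genes above 0, with a median of 0.55. Dcn and Lum were called higher, beside 2.33% of all genes. The summed fibroblast level there was 1498 FPKM with vehicle and 1461 with SR9009. The part of these cell types in the carrier values was not tested. In vehicle the median of the cardiomyocyte markers after 48 h of PE was 0.14. Myl2 was the 1 of 10 called higher, beside 4.87% of all genes.

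With SR9009 alone, before PE, most carriers lay near their vehicle level. At 0 h, 1 of 32 members, Slc25a33, was higher and 0 were lower by the 2-fold rule, beside 0.499% and 0.566% of 10415 genes, and the 1.5-fold rule added none, beside 1.86% and 2.77%. The member median was -0.02 and that of all genes -0.01. Next after Slc25a33 came Slc25a39, with 96.8 FPKM in vehicle and 141 with SR9009, a difference of 0.53 (0.11 to 0.96). At the other end were Slc25a29, a carrier of basic amino acids, with 5.10, 5.36 and 4.22 FPKM at the 3 times in vehicle and 3.61, 4.34 and 4.65 with SR9009 (-0.41 at 0 h), and Slc25a11 at -0.34. Cardiomyocyte markers had a median difference of -0.48 at this time, with 10 of 10 below 0, and the 11 mitochondrial content genes -0.27, with 10 below 0. The smooth muscle markers had a median of -0.31 at 0 h and -0.60 at 4 h of PE. At each time 7 of 7 lay below 0. The macrophage markers had medians of -0.75 and -0.96, also with 7 of 7 below 0. Of these 7, 3 were lower by the 2-fold rule at each time, beside 0.566% and 1.05% of all genes. Fibroblast markers had medians of -0.10 and -0.35, with 6 and 9 of 9 below 0. The endothelial medians were 0.13 and -0.05, and the erythroid medians 0.56 and 1.05. Of all genes, 47.2% lay above 0 at 0 h and 40.8% at 4 h of PE. The part of these markers in the carrier values was not tested.

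At 4 h of PE the carrier that differed most between the arms was Slc25a39, which imports glutathione into mitochondria. It (chromosome 10, 90351899 to 90356242, rn6) had 96.8, 82.8 and 94.4 FPKM at 0, 4 and 48 h in vehicle and 141, 160 and 95.7 with SR9009. The SR9009 groups at 0 and 4 h stood above the other 4, with bounds that do not overlap, and at 48 h the arms were alike within the bounds. The 4 h difference was 0.94 (0.54 to 1.35), which meets the 1.5-fold rule as 1 of 32 members higher and 0 lower, beside 1.99% and 5.17% of all genes, and it was 1.00 with FPKM rescaled to equal sums. Gclc, the catalytic subunit of the enzyme that starts glutathione synthesis, stood at 20.4 against 36.2 FPKM (vehicle against SR9009) at 0 h and at 27.2 against 39.9 at 4 h. RefSeq lists 8 pseudogene symbols of Slc25a39.

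By the 2-fold rule 0 members were higher and 0 lower with SR9009 at 4 h of PE, beside 0.499% and 1.05% of 10412 genes, and the member median was 0.04 against -0.06 for all genes. With FPKM rescaled to equal sums, with centring on the median of all genes or with quantile normalization, Slc25a39 made the number higher 1. After it came Slc25a42, with 8.76 FPKM in vehicle and 12.9 with SR9009 (0.51). Slc25a28, mitoferrin-2, which brings iron to the matrix, had 17.5 and 25.2 FPKM (0.50). The other mitoferrin, Slc25a37, known from red blood cell precursors, had 8.14 and 8.20 FPKM. Haemoglobin and other erythroid transcripts, whose sum over 8 genes at 4 h was 83.4 FPKM under vehicle and 198 under SR9009, also differed, and their part in the iron carrier values was not tested. At the lower end were Slc25a26 at -0.42 (-0.82 to -0.03) and Slc25a46, an outer membrane protein of mitochondrial dynamics, at -0.36. Slc25a46 had 46.3, 57.4 and 42.6 FPKM at the 3 times in vehicle and 42.8, 44.7 and 42.6 with SR9009.

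At 48 h of PE, 2 of 32 members, Slc25a42 and Slc25a34, were higher with SR9009 and 0 were lower by the 2-fold rule, beside 2.33% and 4.55% of 10408 genes. The comparison uses the same vehicle group at 48 h as the PE comparison in vehicle, so a value of that group enters both. The member median was -0.01 and that of all genes -0.04. By the 1.5-fold rule Slc25a20 was also higher and Slc25a25 lower, beside 7.13% and 11.3% of all genes. Slc25a25, a calcium-regulated carrier of ATP-Mg and phosphate, had 11.8, 16.8 and 18.004 FPKM at 0, 4 and 48 h in vehicle and 11.6, 14.4 and 10.3 with SR9009; the 48 h difference between the arms was -0.75 (-1.16 to -0.34). Its relatives in that subfamily met no rule there. Slc25a23 at 48 h had 25.3 FPKM under vehicle and 34.0 under SR9009 (0.41, range -0.01 to 0.84). Slc25a24 had 17.1 and 15.8 (-0.11, range -0.50 to 0.28), a range that overlaps that of Slc25a25.

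The citrate carrier Slc25a1 differed between the arms at 48 h by -0.51 (-0.94 to -0.08). Of the enzymes that make fatty acids from exported citrate, Acly had 79.1 and 53.4 FPKM, Fasn 107 and 76.4, and Acaca 25.1 and 20.2. These enzymes and the carrier had their highest vehicle level at 48 h. The difference of Slc25a14 was also -0.51, but its range of -1.07 to 0.03 includes 0. Slc25a32, which brings folate and flavin cofactors to the matrix, had 10.7 and 8.40 FPKM (-0.32), while the mitochondrial folate enzyme genes Mthfd2 (81.1 and 28.8 FPKM) and Mthfd1l (13.0 and 5.33) were lower by the 2-fold rule.

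**Figure D4:**
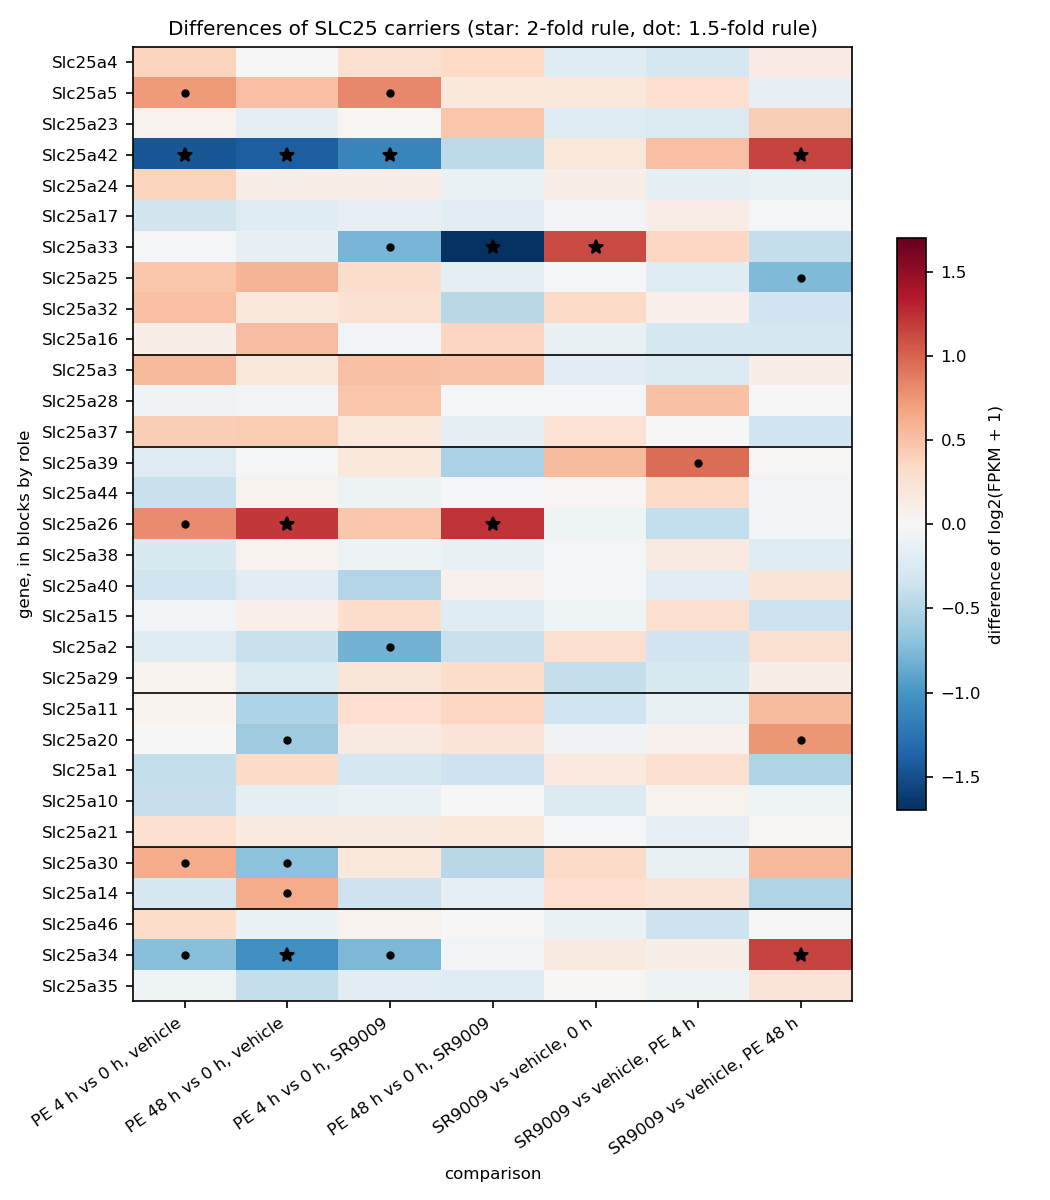
Differences of log2(FPKM + 1) for 31 of the 32 members (rows, in blocks by role) in the 7 comparisons (columns), red for higher and blue for lower, with a star where the 2-fold rule was met and a dot where only the 1.5-fold rule was. Stars fall in 4 rows, those of Slc25a42, Slc25a33, Slc25a26 and Slc25a34.

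Within the SR9009 arm, 4 h of PE gave 0 members higher and 1, Slc25a42, lower by the 2-fold rule, beside 1.83% and 2.65% of 10408 genes. The member median was 0.13 and that of all genes -0.06. By the 1.5-fold rule Slc25a5 was higher, and Slc25a2, an ornithine carrier, was lower at -0.80, with Slc25a33, Slc25a34 and Slc25a42, beside 6.5% and 9.95% of all genes. Slc25a2 had 7.63, 6.46 and 5.64 FPKM in vehicle and 9.38, 4.95 and 6.95 with SR9009. The other ornithine carrier, Slc25a15, had 7.90 and 9.97 FPKM in the same groups, a difference of 0.30.

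At 48 h in that arm 1 member was higher, Slc25a26, and 1 lower, Slc25a33, beside 1.26% and 1.16% of 10409 genes, with medians of -0.03 for both the members and all genes. The 1.5-fold rule added none, beside 5.04% and 4.97% of all genes. The next largest differences were 0.49 in Slc25a3 and -0.55 in Slc25a39. Of all genes 45.2% lay above 0 in this comparison. The cardiomyocyte markers had a median of 1.07, with 10 of 10 above 0 and 5 called higher. The fibroblast markers had a median of -0.41, with 8 of 9 below 0. The part of these markers in the carrier values was not tested.

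**Figure D5:**
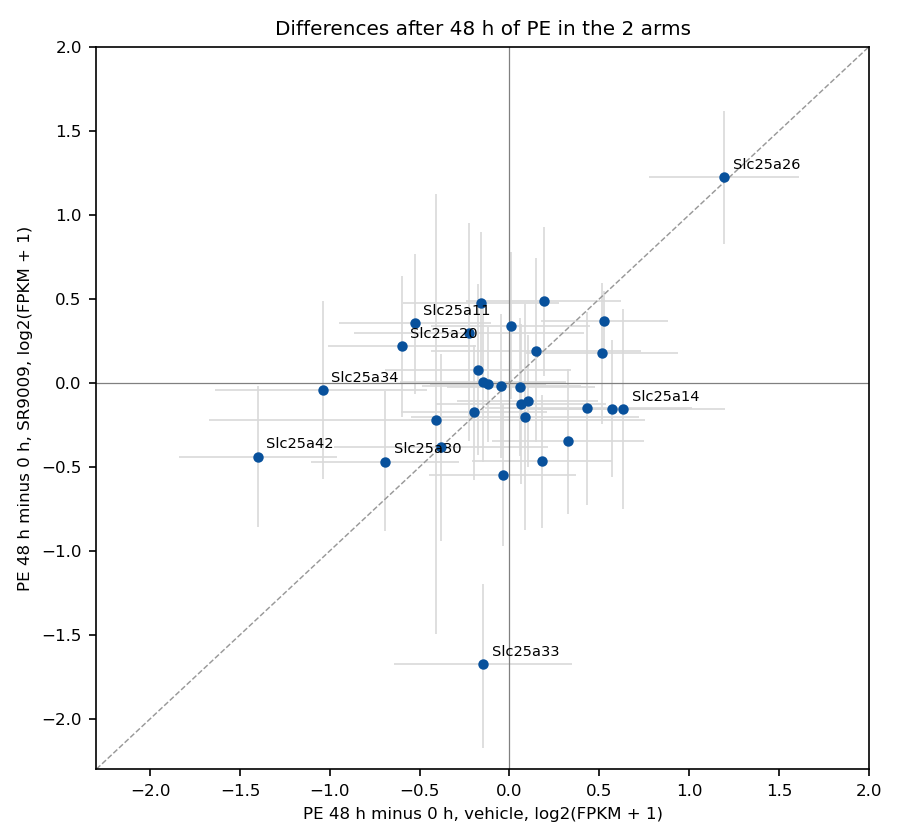
Difference after 48 h of PE in the SR9009 arm (vertical axis) against that in the vehicle arm (horizontal axis), 1 point for each of 31 members, in log2(FPKM + 1), with lines for the range the bounds allow and a dashed line of equality. The arms share no libraries; Slc25a26 lies on the line at 1.20 and 1.23, Slc25a42 and Slc25a34 lie left of it, and Slc25a33 lies far below it.

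Subtracting the PE difference under vehicle from that under SR9009 gave calls of 0 members higher and 0 lower at 4 h, beside 0.077% and 0.346% of 10394 genes, and the 1.5-fold rule likewise called 0 and 0, beside 0.115% and 0.664%. At 48 h it gave 0 higher and 1 lower, Slc25a33, beside 3.71% and 5.34% of 10394 genes. Slc25a34 at 1.00 (-0.11 to 2.12) has a range that includes 0. Slc25a42 at 0.96 (0.10 to 1.82) and Slc25a11 met the 1.5-fold rule, beside 5.49% of all genes higher, and Slc25a33 was the only member lower, beside 7.68%. Slc25a42 met the 2-fold rule with a pseudocount of 0.1 (1.03), and both Slc25a42 and Slc25a11 met it with rescaled FPKM (1.07 and 1.00) and with quantile normalization (1.02 and 1.00). For this quantity at 48 h, 47.5% of all genes lay above 0. The median of the cardiomyocyte markers was 0.46, with 10 of 10 above 0 and 4 called higher. The fibroblast markers had a larger median, 1.05, with 7 of 9 above 0, 2 below and 5 called higher. The 11 mitochondrial content genes had a median of 0.63, with 10 above 0 and 1 below. The part of these genes in the carrier values was not tested.

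By role, of the 11 carriers of nucleotides and cofactors 0 were higher and 1 lower at 48 h of PE in vehicle by the 2-fold rule, with a median of 0.10, beside 4.87% and 3.96% of all genes. The 8 carriers of amino acids, S-adenosylmethionine and glutathione had 1 higher and 0 lower, with a median of 0.01. The 5 carriers of carboxylates and carnitine had 0 called and a median of -0.15. The 3 carriers of phosphate and metals had 0 called and a median of 0.19, and the 2 related to uncoupling proteins 0 called and a median of -0.03. The other 3 members had 0 higher and 1 lower, with a median of -0.41. Several members varied little: Slc25a17, a peroxisomal carrier of coenzyme A and other cofactors, lay between 15.4 and 19.5 FPKM in all 6 groups. Slc25a38, a glycine carrier of haem synthesis, lay between 9.59 and 12.3 FPKM, and Slc25a44, a carrier of branched-chain amino acids, between 11.3 and 15.6. Slc25a10, the dicarboxylate carrier, lay between 12.2 and 16.5 FPKM. Slc25a40, a relative of the glutathione carrier whose row overlaps that of Rundc3b, had a wider span, between 6.35 and 9.99 FPKM, and met no rule. Slc25a16, linked to coenzyme A transport, had 5.32 FPKM with SR9009 at 0 h with bounds of 5.30 to 5.34, far narrower than those of other members, so its range is not comparable with theirs. The lowest members, Slc25a35 (1.71 to 2.69 FPKM, a row overlapping Rangrf) and Slc25a21, the oxoadipate carrier (1.00 to 1.44 FPKM, overlapping Pax9), met no rule in any comparison.

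Family members that go by other symbols were read from the same table. Ucp2, uncoupling protein 2, had 56.8, 36.2 and 107 FPKM at 0, 4 and 48 h in vehicle and 47.9, 31.7 and 97.5 with SR9009. It was thus low at 4 h and high at 48 h in both arms, with 48 h differences of 0.90 in vehicle and 1.01 with SR9009, the second of which met the 2-fold rule. Mtch1 and Mtch2, outer membrane relatives of the carriers, lay between 172 and 196 FPKM and between 150.4 and 196 FPKM. Ucp1, Ucp3 and Mcart1 had at most 0.0922, 0.185 and 0.399 FPKM.

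Other proteins of the same traffic gave few calls. Of 21 other mitochondrial transporters, 1, the porphyrin-related transporter Abcb6, was higher and 0 lower at 48 h of PE in vehicle (28.4 and 66.9 FPKM), beside 4.87% and 3.96% of all genes. Under SR9009 its level was 34.9 FPKM at 0 h and 35.2 at 48 h. Mpc2, a subunit of the pyruvate carrier, had 426 and 336 FPKM at 0 and 48 h in vehicle and 311 and 573 with SR9009, whereas its partner Mpc1 had 408 and 601 in vehicle and 344 and 467 with SR9009. For the 48 h PE difference with SR9009 minus that in vehicle, Mpc2 was higher and Abcb6 lower by the 2-fold rule. That is 1 and 1 of 21, beside 3.71% and 5.34% of all genes. Mitochondrial import genes, which do not all serve carriers, had medians of 0.51 in vehicle and 0.53 with SR9009 at 4 h of PE. Above 0 lay 48.4% of all genes in vehicle and 44% with SR9009, and 13 of 13 import genes in each arm. None of these met the 2-fold rule, and 6 of 13 met the 1.5-fold rule as higher in each arm, beside 8.15% of all genes in vehicle and 6.5% with SR9009, among them Timm8a1 (0.97 in vehicle) and Tomm40 (0.70).

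Regulators of mitochondrial gene expression were mostly not called in the 7 comparisons either. Of 14, 1 was higher at 4 h of PE in vehicle, the coactivator Ppargc1b (17.5 and 39.2 FPKM), and 0 were lower, beside 2.75% and 2.32% of all genes. Ppargc1a had 26.4 and 19.1 FPKM at 0 and 48 h in vehicle and 16.3 and 28.0 with SR9009. Ppara, the fatty acid receptor, had 13.7, 10.8 and 7.30 FPKM at 0, 4 and 48 h in vehicle and 11.8, 11.03 and 14.5 with SR9009. When the 48 h PE difference in vehicle was subtracted from that with SR9009, Ppargc1a and Ppara were higher and Pprc1 lower. That is 2 and 1 of 14 by the 2-fold rule, beside 3.71% and 5.34% of all genes. Of 31 partner enzymes of the carried metabolites, 3 were higher with SR9009 at 48 h of PE (Cpt1a, the mitochondrial creatine kinase Ckmt2 and the branched-chain aminotransferase Bcat2) and 2 lower (Mthfd2 and Mthfd1l), beside 2.33% and 4.55% of all genes. The same subtraction at 48 h called 2 of the 31 higher and 6 lower, beside 3.71% and 5.34% of all genes. Ckmt2, which uses ATP delivered by the translocase, had 35.2, 39.5 and 15.8 FPKM at 0, 4 and 48 h in vehicle and 13.8, 17.6 and 38.8 with SR9009.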

How the data were processed

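RNA from 18 libraries in 6 groups of 3 was measured by stranded mRNA sequencing, per the labels' protocols. Titles gave each sample's group. The deposited table holds FPKM, which the authors derived once for each gene and group from 3 libraries, with confidence bounds whose level is not given in the sources used here, per the file headers. Per the submitters' processing notes, FastQC, Trim Galore, TopHat, Cuffdiff and rn6 were used. The other numbers in the table are the authors' lower and upper bounds, on the FPKM scale.

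Differences of log2(FPKM + 1) were computed with Python 3.11.15, pandas 2.3.3 and numpy 2.4.6 over genes of mean FPKM at least 1. Listed zeros and values of status HIDATA (3 to 8 genes per group) entered no difference, and 172 values outside their bounds entered no count. With no value per library, the 2-fold and 1.5-fold rules stand in place of a test. Alternatives were a pseudocount of 0.1, other filters, and 3 scalings. Members named by rule are those meeting the 2-fold rule, the 6 of highest mean, and the 2 largest differences per direction among members with at least 5 FPKM in a compared group; other genes named were chosen, unless they met the 2-fold rule, after their values were seen. One member is counted in the totals but not reported here or drawn. The members and lists were chosen with earlier results of these data known. Loci are those of the table on rn6, written with the first base counted as 1; whether the table counts starts from 0 is not stated in it. Sequences come from RefSeq, build GRCr8, for 26 of the 32 members.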

Additional observations from a re-analysis of the deposited data

How the results depend on the processing

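No paired analysis was possible because the table holds 1 value per gene and group, and leaving out a replicate was not run for the same reason. Of 162 recomputed counts and medians, 148 stayed within 1.5 times the count or within 0.1 of the median. The counts were those of the 2-fold rule. With FPKM rescaled to equal sums the member median was -0.16 for 4 h of PE in vehicle, -0.23 for 48 h in vehicle and 0.00378 for 4 h with SR9009; the median of all genes moved by -0.18, -0.20 and -0.12 there, and by 0.10 for SR9009 at 48 h and 0.11 for its interaction. That scaling also gave 0 members higher at 48 h in vehicle, 1 higher with SR9009 at 4 h and 2 for the 48 h interaction. Quantile normalization gave 1 lower at 48 h in vehicle, 1 higher with SR9009 at 4 h and 2 for the 48 h interaction, and centring gave 1 higher with SR9009 at 4 h. A pseudocount of 0.1 gave 2 lower at 4 h of PE with SR9009 and 1 higher for the 48 h interaction. A mean of at least 5 FPKM left 27 members, without Slc25a34, and gave 1 lower at 48 h in vehicle and 1 higher with SR9009 at 48 h. No called member changed sign under these alternatives. Depth is unknown, and the spread between libraries enters only through the authors' bounds.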
